A study of Macaca fascicularis with 44 samples.

Results

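The nutrient transporter families of the solute carriers SLC1A, SLC2A, SLC3A, SLC5A, SLC7A, SLC16A, SLC22A, SLC27A and SLC38A were followed through the cell classes of cultured cynomolgus monkey embryos. Members were taken by gene name, as every row of the count table named for 1 of these families followed by a number. This gave 93 of 21834 genes: 7 of SLC1A, 11 of SLC2A, 2 of SLC3A, 12 of SLC5A, 13 of SLC7A, 14 of SLC16A, 17 of SLC22A, 6 of SLC27A and 11 of SLC38A. All 93 had at least 1 count. The glucose carrier SLC2A3 has no row under that symbol and was not analysed here.

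Wild type Macaca fascicularis embryos were made by sperm injection, and expanded blastocysts were kept in culture. Extraembryonic tissue was dissected away and the rest digested to single cells, whose RNA was sequenced by scChaRM-seq, an assay that reads RNA and DNA of the same cell. The 42 libraries used hold 3533 cells of 9 embryos, 2 of E16 (E16-1 and E16-2) and 1 each of E18, E20, E21, E22, E23, E24 and E25, and all share 1 genotype and culture with no treatment. The classes are those of the authors' annotation: syncytiotrophoblast (STB, 4 embryos), extravillous trophoblast (EVT, 6 embryos), cytotrophoblast (CTB, 8 embryos), Extraembryonic Mesoderm (6 embryos), EXMC, taken as extraembryonic mesenchyme (8 embryos), Mesoderm (3 embryos) and epiblast (EPI, 3 embryos), counting embryos with at least 10 cells of the class. Endoderm and Non-neural ectoderm had 2 such embryos each, PS and derivative 2 and Neural ectoderm 1, and these are described by their values only. Although extraembryonic tissue was dissected away, most cells bore extraembryonic names: 1137 EXMC, 530 EVT, 520 CTB, 459 Extraembryonic Mesoderm and 100 STB.

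Solute carriers move nutrients across membranes along or against their gradients, and the families differ in what they carry. SLC2A proteins let sugars through, SLC5A proteins couple sugars, vitamins and acids to sodium, SLC1A, SLC7A and SLC38A proteins carry amino acids, SLC3A2 is the heavy chain that many SLC7A light chains need to reach the surface, SLC16A proteins carry lactate and related acids, SLC22A proteins carry organic ions and carnitine, and SLC27A proteins take up and activate fatty acids. In the placenta the syncytiotrophoblast is the layer through which the fetus is fed.

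The embryo was the replicate: counts were summed per embryo and class, and levels are CPM, the counts of a gene scaled to a fixed total of each sum, which compare classes for 1 gene but not genes with each other, since they are not per length. A median cell held 110109 counts, and library medians ran from 40735 to 350364 counts. The marker genes of a class were highest in that class for 5 of 7 STB, 5 of 6 EVT, 2 of 7 CTB, 3 of 6 EXMC, 2 of 3 EPI, 5 of 5 Endoderm and 4 of 4 PS and derivative markers. The same held for 2 of 5 Neural ectoderm, 2 of 6 Non-neural ectoderm and 1 of 4 Blood cell markers. It held for 0 of 5 Mesoderm and 0 of 5 Extraembryonic Mesoderm markers, so these names are only the authors'. In pooled cells the Non-neural ectoderm markers summed to 826 CPM in that class, against 1250 CPM in STB and 1097 CPM in EVT. The EXMC markers summed to 3664 to 8233 CPM in the STB embryos (median 4971), to 1426 to 16830 CPM in the EVT embryos (median 7997) and to 433 to 2068 CPM in the CTB embryos (median 913). Class contrasts were tested with edgeR's quasi-likelihood test with the embryo as a block. Benjamini-Hochberg adjustment ran over all genes and all contrasts of a class with the mean of the others together. The contrasts between trophoblast classes were adjusted together as a separate set. Extraembryonic Mesoderm against EXMC was adjusted over all genes alone. A gene was called at an adjusted p under 0.05, the threshold. Where leaving out 1 embryo, or another way of summing (at least 20 or at least 5 cells, or sums per library with the library as a block) or scaling, ended such a call, its value is given at the end of the account of that gene or paragraph, as a log2 fold change. Class names may rest on the same expression values, so these p-values are descriptive. A lower level can mean fewer expressing cells or less RNA per cell, which sums do not tell apart, and the fitted fold changes of genes near 0 CPM depend on the prior count.

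Most nutrient carriers differed between classes. Of the 93 members 70 had enough counts to be tested and 54 of these passed in at least 1 class against the mean of the other classes, where 62.2% of all genes tested did (8813 of 14166). The share of the tested members is the larger, the difference was not tested, and the 23 rare members are in neither count. In STB 14 members rose and 4 fell (all genes: 12.1% up, 8.37% down). In EVT 9 rose and 1 fell (12.5% and 3.55%), and in CTB 12 rose and 13 fell (14.6% and 13.4%). In EXMC 14 rose and 6 fell (16% and 8.52%), in Extraembryonic Mesoderm 11 rose and 6 fell (12.8% and 6.88%), in EPI 7 rose and 5 fell (9.29% and 10.1%), and in Mesoderm 0 rose and 2 fell (6.18% and 5.15%). Among the rises, 14 of 70 tested members in STB stood furthest above the background and 0 of 70 in Mesoderm furthest below it, while most other counts lay near it. The median log2 fold change of the tested members was 0.32 in STB (all genes -0.14), 0.43 in EVT (0.069), -0.081 in CTB (-0.02), -0.63 in Mesoderm (0.022), 0.35 in EXMC (0.087), 0.13 in Extraembryonic Mesoderm (0.079) and -0.6 in EPI (-0.073).

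The 42 members that reached a class mean of 10 CPM show which class led. STB had the highest mean for 15 of them, EXMC for 7, EVT for 6, Extraembryonic Mesoderm for 5, EPI for 5, CTB for 2 and Mesoderm for 2. At the other end 22 members stayed under 1 CPM in every class mean. The 23 members left untested for low counts reached at most 3.19 CPM (SLC16A7, a monocarboxylate carrier, in EPI). They include all 5 organic anion and urate carriers of SLC22A and 5 of the 7 sodium sugar and inositol carriers of SLC5A.

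**Figure D1:**
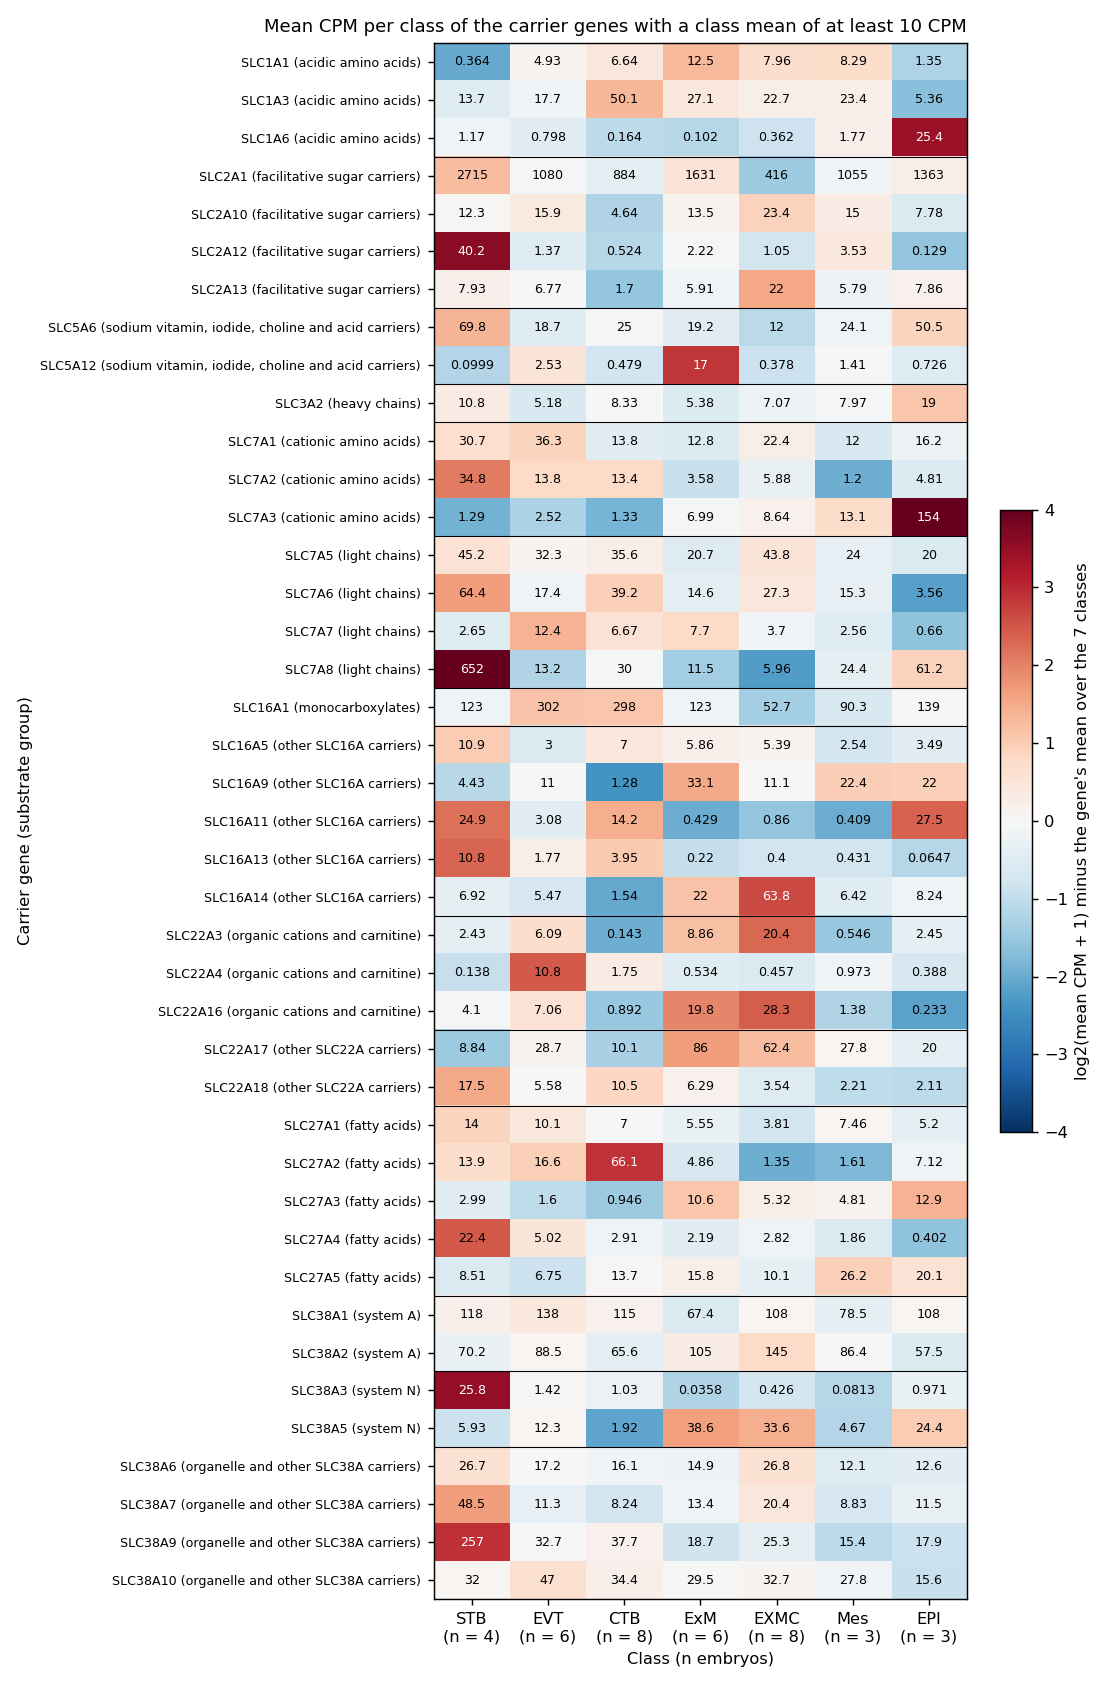
Mean level of 41 of the 42 members with a class mean of at least 10 CPM (rows, by substrate group) in 7 classes (columns). Numbers are mean CPM over embryos, and colour is log2(mean CPM + 1) minus the gene's own mean over the classes. STB holds the highest mean of 15 members.

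Among the facilitative sugar carriers, 9 of 11 were tested. In STB 2 rose and 0 fell (all genes 12.1% and 8.37%), in EXMC 2 rose and 1 fell (16% and 8.52%), and in CTB 0 rose and 2 fell (14.6% and 13.4%), counts near those shares. SLC2A1 (GLUT1), the main glucose carrier of placenta and blood vessels, stood at 1480.4 CPM in E16-2, 3623 CPM in E20, 2891 CPM in E23 and 2865 CPM in E25 in STB. It ranged from 542 to 1533 CPM (median 1126) in the 6 EVT embryos, from 485 to 1559 CPM (median 741) in the 8 CTB embryos and from 168 to 776 CPM (median 414) in the 8 EXMC embryos. All 4 STB values lay above every EXMC value, while the lowest STB value fell inside the EVT and CTB ranges. Against the mean of the other classes SLC2A1 rose 3.34-fold in STB (log2 fold change 1.74 ± 0.27 (SE), adjusted p = 1.81e-05) and fell in EXMC (log2 fold change -1.59 ± 0.23 (SE), adjusted p = 3.73e-06). Its level was high in the other classes too, with 1363 ± 1151 CPM in EPI, 1055 ± 721 CPM in Mesoderm and 1631 ± 759.6 CPM in Extraembryonic Mesoderm (SD; n = 3, 3 and 6). In the classes without a test it was 1837 and 2792 CPM in Non-neural ectoderm of E22 and E23, 1252 and 453 CPM in Endoderm of E18 and E21, and 212 and 291 CPM in PS and derivative of E16-1 and E16-2.

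SLC2A12 (GLUT12), a glucose carrier also known from muscle and placenta, had 5.2 CPM in E16-2, 8.1 CPM in E20, 135 CPM in E23 and 12.4 CPM in E25 in STB, against at most 3.07 CPM in any EVT embryo, 1.94 in CTB and 2.57 in EXMC. E23 was far above the other STB embryos, but all 4 lay above every EVT, CTB and EXMC value. Some other classes overlapped STB. Neural ectoderm of E22 had 144 counts of 6824986 in all, a higher level than STB of E16-2, E20 and E25. Mesoderm of E22, with 105 counts of 18135320, stood above STB of E16-2. Non-neural ectoderm of E22 and PS and derivative of E16-1 did so too. The rise in STB had a log2 fold change 4.24 ± 0.78 (SE), adjusted p = 0.000153. For SLC2A12 in STB the log2 fold change was 5.11 without E18 and 3.29 without E23, with the call kept. SLC2A13, a proton-coupled myo-inositol carrier known from brain, was highest in EXMC, from 4.71 to 36.1 CPM (median 20.6), against from 0.264 to 3.82 CPM (median 1.63) in CTB, and rose in EXMC (log2 fold change 2.31 ± 0.45 (SE), adjusted p = 0.000288). The ranges of EXMC and CTB did not overlap. The sodium-coupled myo-inositol carrier SLC5A3 stayed between 2.12 ± 2.33 CPM in EPI and 6.18 ± 6.16 CPM in Extraembryonic Mesoderm (SD; n = 3 and 6) and passed in no class.

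The heavy chain SLC3A2, partner of the light chains below, passed in no class. Its means lay between 5.18 ± 1.67 CPM in EVT and 19 ± 9.45 CPM in EPI (SD; n = 6 and 3), with the 3 EPI values (8.73, 20.8 and 27.4 CPM in E18, E21 and E25) overlapping those of the other classes. Of the 8 light chains 6 were tested. In STB 2 rose and 0 fell (all genes 12.1% and 8.37%), and in EPI 1 rose and 1 fell (9.29% and 10.1%). SLC7A5 (LAT1) and SLC7A8 (LAT2), which exchange large neutral amino acids, behaved differently. SLC7A5 had 54, 54.3, 53.2 and 19.5 CPM in STB of E16-2, E20, E23 and E25, against a range from 12.9 to 77 CPM (median 31.6) in CTB, and passed in no class. SLC7A8 had 639 CPM in E16-2, 1059 CPM in E20, 471 CPM in E23 and 439 CPM in E25 in STB, against a range of 2.02 to 69.4 CPM in CTB, 0.849 to 30.5 CPM in EVT and 0 to 21 CPM in EXMC. The STB values lay above those of every other class, Non-neural ectoderm included (170.2 and 250.1 CPM in E22 and E23). SLC7A8 rose 21.3-fold in STB (log2 fold change 4.41 ± 0.53 (SE), adjusted p = 2.04e-07). It fell in EXMC (log2 fold change -3.09 ± 0.52 (SE), adjusted p = 4.17e-05).

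In EPI SLC7A8 had 81.3, 87.8 and 14.6 CPM in E18, E21 and E25, with E25 inside the CTB range, and rose against the mean of the other classes (log2 fold change 2.19 ± 0.61 (SE), adjusted p = 0.00974). Without E18 or E21, SLC7A8 missed the threshold in EPI (log2 fold change 1.67 to 1.91, adjusted p = 0.0758 to 0.162). For SLC7A8 in EPI the log2 fold change was 2.96 without E25, with the call kept. SLC7A6, a light chain that exchanges cationic for neutral amino acids with sodium (y+LAT2), had 93.5, 63.7, 9.48 and 90.8 CPM in STB of E16-2, E20, E23 and E25. It ranged from 16.8 to 50.1 CPM (median 41.7) in CTB, and was 2.14, 2.31 and 6.22 CPM in EPI of E18, E21 and E25. It rose in STB (log2 fold change 1.92 ± 0.38 (SE), adjusted p = 0.000386) and CTB (log2 fold change 1.3 ± 0.27 (SE), adjusted p = 0.000546) and fell in EPI (log2 fold change -2.75 ± 0.57 (SE), adjusted p = 0.000589), with EPI under every CTB value. Its related light chain SLC7A7 (y+LAT1) had its highest class mean in EVT, from 4.95 to 20.9 CPM (median 10.3), against 1.36, 0 and 0.622 CPM in EPI, and rose in EVT (log2 fold change 2.00 ± 0.49 (SE), adjusted p = 0.00305). The EVT range overlapped those of CTB and Extraembryonic Mesoderm, where E20 had 440 counts of 23278269 in all. Reads of SLC7A6 and of a gene on the other strand that overlaps it cannot be told apart here, because strand use in counting is not stated. SLC7A11, the cystine and glutamate exchanger, stayed under 3 CPM in every class mean and passed in none. For SLC7A6 the log2 fold change in STB turned to -0.58 in sums per library (adjusted p = 1). SLC7A6 (1.14 to 1.24, adjusted p = 0.0616 to 0.14) in STB and SLC7A6 (-1.26 to -2.37, adjusted p = 0.0996 to 0.106) in EPI missed the threshold with at least 20 cells per sum or with at least 5 cells per sum. SLC7A7 (1.53, adjusted p = 0.119) in EVT missed the threshold in sums per library.

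The 5 cationic amino acid carriers, which bring in arginine and lysine, were all tested and led in different classes. SLC7A3, known in human tissues mainly from brain, had 254 CPM in E18, 166 CPM in E21 and 42.9 CPM in E25 in EPI. It had 14.9, 8.19 and 16.2 CPM in Mesoderm of E18, E21 and E22 and from 0.0674 to 28.6 CPM (median 5.75) in EXMC, so that all 3 EPI values lay above those of every other tested class. Its rise in EPI had a log2 fold change 5.47 ± 0.77 (SE), adjusted p = 2.89e-06. For SLC7A3 in EPI the log2 fold change was 4.75 without E18 and 6.47 without E25, with the call kept. Outside the tested classes it was 30.6 and 83.6 CPM in PS and derivative of E16-1 and E16-2 and 49.5 CPM in Neural ectoderm of E22. In CTB SLC7A3 fell (log2 fold change -2.84 ± 0.74 (SE), adjusted p = 0.00569), at 0 to 4.67 CPM. For SLC7A3 in CTB the log2 fold change was -3.62 without E23, with the call kept. SLC7A1 (CAT1), the widespread member of the group, was highest in EVT, from 17.4 to 52 CPM (median 34), against from 2.29 to 35.6 CPM (median 10.8) in CTB, and rose in EVT (log2 fold change 1.33 ± 0.39 (SE), adjusted p = 0.0137). STB overlapped EVT for SLC7A1, with 39.2, 24.9, 9.95 and 48.7 CPM in E16-2, E20, E23 and E25, and so did EXMC. Without E23, SLC7A1 missed the threshold in EVT (log2 fold change 1.01, adjusted p = 0.0959). SLC7A2 (CAT2) had its highest class mean in STB, at 34.8 CPM, and passed as a rise in 2 class contrasts not detailed here. It fell in Mesoderm (log2 fold change -2.54 ± 0.71 (SE), adjusted p = 0.00976), at 0.732, 1.23 and 1.65 CPM in E18, E21 and E22. Without E18, SLC7A2 missed the threshold in Mesoderm (log2 fold change -2.21, adjusted p = 0.0794). SLC7A3 (-1.19 to -1.95, adjusted p = 1) in CTB missed the threshold in sums per library or with at least 20 cells per sum.

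System A carriers SLC38A1 and SLC38A2, which use sodium to concentrate small neutral amino acids such as alanine and glutamine, were measured well above 10 CPM in every class mean. SLC38A2 was highest in EXMC, from 92.9 to 179 CPM (median 151), against from 35.9 to 95.8 CPM (median 59.2) in CTB and 55.1, 43.1 and 74.4 CPM in EPI of E18, E21 and E25, and rose in EXMC 2.04-fold (log2 fold change 1.03 ± 0.16 (SE), adjusted p = 1.19e-05). SLC38A1 ranged from 88.6 to 198 CPM (median 137) in EVT and from 21.9 to 87.6 CPM (median 71.3) in Extraembryonic Mesoderm, ranges that did not overlap. The third system A member, SLC38A4, a carrier known from human and mouse placenta and liver, was chosen for mention after its values were seen. It had 0 counts in STB and EVT, and 1 count in all of CTB, while EPI had 1.55, 1.54 and 2.8 CPM in E18, E21 and E25. Higher values were 3.1 CPM in Extraembryonic Mesoderm of E21 and 3.29 CPM in Non-neural ectoderm of E22.

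System N carriers exchange glutamine and histidine for protons, and their 2 members stood in different classes. SLC38A3 had 60.4 CPM in E16-2, 19.6 CPM in E20, 12.7 CPM in E23 and 10.6 CPM in E25 in STB, above every value of the other classes, which reached 4.54 CPM in CTB and 3.07 CPM in EVT. It rose in STB (log2 fold change 5.64 ± 0.99 (SE), adjusted p = 0.000105). For SLC38A3 in STB the log2 fold change was 6.87 without E18 and 4.63 without E25, with the call kept. SLC38A5 ranged from 9.3 to 79 CPM (median 27.9) in EXMC and from 12 to 64.4 CPM (median 39.5) in Extraembryonic Mesoderm, against from 0 to 4.66 CPM (median 1.76) in CTB, with no overlap between CTB and either of the other classes. SLC38A5 rose in EXMC (log2 fold change 1.98 ± 0.35 (SE), adjusted p = 8.73e-05) and in Extraembryonic Mesoderm (log2 fold change 2.22 ± 0.41 (SE), adjusted p = 0.000157) and fell in CTB (log2 fold change -2.92 ± 0.47 (SE), adjusted p = 2.65e-05). SLC38A3 (7.14, adjusted p = 1) in STB missed the threshold in sums per library.

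SLC38A9 and SLC38A7 sit on the lysosome, where SLC38A9 senses arginine for the growth kinase mTORC1 and SLC38A7 exports glutamine. SLC38A9 had 215 CPM in E16-2, 444 CPM in E20, 167 CPM in E23 and 200.2 CPM in E25 in STB, against a range of 22.8 to 50.4 CPM in EVT, 17.7 to 64.5 CPM in CTB and 5.53 to 39.4 CPM in Extraembryonic Mesoderm. All 4 STB values were above all others, and SLC38A9 rose 8.22-fold (log2 fold change 3.04 ± 0.28 (SE), adjusted p = 1.83e-09). SLC38A7 had 34.8, 32, 72.6 and 54.5 CPM in STB of E16-2, E20, E23 and E25 and ranged from 2.29 to 18.7 CPM (median 7.45) in CTB and from 6.94 to 44.8 CPM (median 17.9) in EXMC, whose highest value overlapped STB. It rose in STB (log2 fold change 2.23 ± 0.42 (SE), adjusted p = 0.000235). SLC38A10, a widespread member of less known role, was lowest in EPI (12.4, 27.7 and 6.53 CPM in E18, E21 and E25) against from 23.1 to 58.1 CPM (median 51.4) in EVT, and fell in EPI (log2 fold change -1.08 ± 0.34 (SE), adjusted p = 0.0218). Without E18 or E25, SLC38A10 missed the threshold in EPI (log2 fold change -0.79 to -0.81, adjusted p = 0.17 to 0.215). SLC38A7 (2.53, adjusted p = 0.134) in STB missed the threshold in sums per library. SLC38A10 (-0.94 to -1.01, adjusted p = 0.0529 to 0.0614) in EPI missed the threshold with no filter on low counts or with at least 5 cells per sum.

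**Figure D2:**
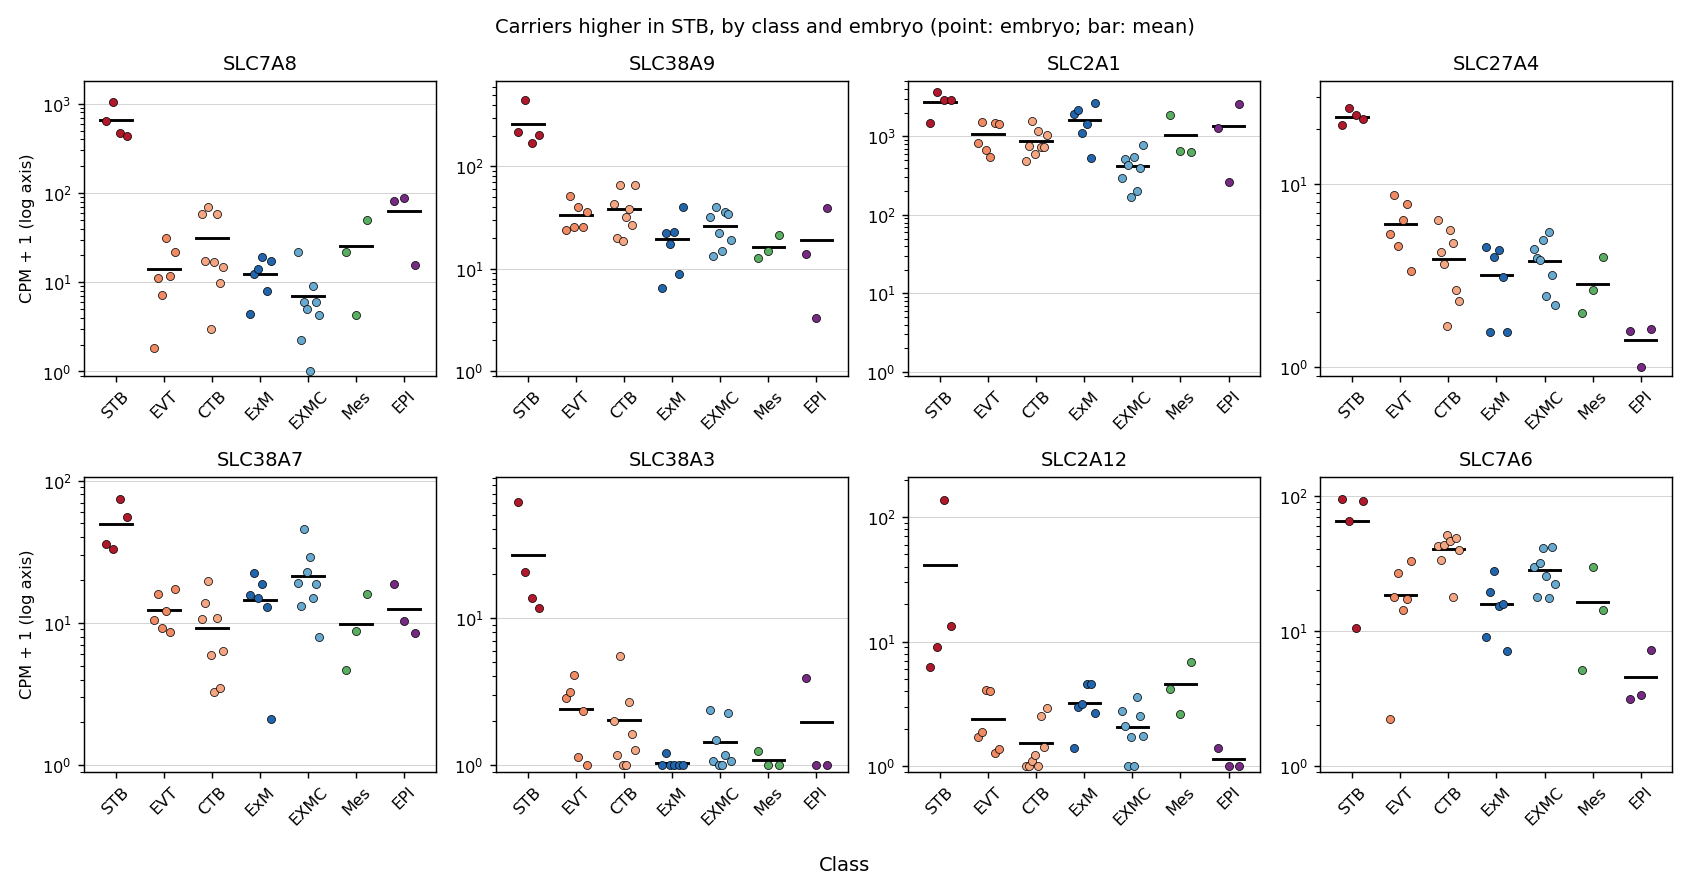
Levels of SLC7A8, SLC38A9, SLC2A1, SLC27A4, SLC38A7, SLC38A3, SLC2A12 and SLC7A6 in 7 classes (CPM + 1, log axis). Each point is 1 embryo and each bar the class mean; ExM is Extraembryonic Mesoderm and Mes is Mesoderm. For SLC7A8, SLC38A9, SLC27A4 and SLC38A3 the 4 STB points lie above those of every other class.

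Of the 5 acidic amino acid carriers, which take up glutamate and aspartate, 4 were tested. SLC1A6 (EAAT4), known from cerebellum, had 21.9 CPM in E18, 20.8 CPM in E21 and 33.6 CPM in E25 in EPI, and at most 5.07 CPM in Mesoderm, 4 CPM in STB and 0.86 CPM in CTB. The EPI values stood above all of these, and SLC1A6 rose in EPI (log2 fold change 6.46 ± 0.82 (SE), adjusted p = 5.92e-07). In Non-neural ectoderm it was 3.29 and 19.7 CPM in E22 and E23. SLC1A3 (EAAT1), the widespread glutamate carrier of glia, was highest in CTB, from 32 to 73.2 CPM (median 48.3), and lowest in EPI (4.27, 1.54 and 10.3 CPM in E18, E21 and E25), with no overlap. It rose in CTB (log2 fold change 1.7 ± 0.25 (SE), adjusted p = 5.2e-06) and fell in EPI (log2 fold change -2.1 ± 0.49 (SE), adjusted p = 0.00225). For SLC1A3 in EPI the log2 fold change was -2.71 without E25, with the call kept. SLC1A1 (EAAT3), the glutamate and cysteine carrier of kidney and neurons, was 0, 1.01, 0 and 0.443 CPM in STB of E16-2, E20, E23 and E25 and from 7.78 to 25.7 CPM (median 9.5) in Extraembryonic Mesoderm, and in Endoderm reached 57.9 and 12.7 CPM in E18 and E21. The fall of SLC1A1 in STB had a log2 fold change -2.94 ± 1.02 (SE), adjusted p = 0.0377. Without E16-2, E18, E21, E23 or E25, SLC1A1 missed the threshold in STB (log2 fold change -2.46 to -3.01, adjusted p = 0.0528 to 0.119). For SLC1A1 in STB the log2 fold change was -4.63 without E20, with the call kept. The small neutral amino acid carriers SLC1A4 and SLC1A5 passed in no class, and SLC1A5 (ASCT2), a main glutamine carrier of many dividing cells, had means of 1.59 to 4.98 CPM over the 7 tested classes. SLC1A1 (-2.31 to -3.29, adjusted p = 0.212 to 1) in STB missed the threshold in sums per library or with at least 20 cells per sum.

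The 5 sodium-coupled carriers of vitamins, iodide, choline and acids split between 2 tested members above 10 CPM. SLC5A6, which takes up biotin and pantothenate, had 49.6, 23.5, 20.8 and 185 CPM in STB of E16-2, E20, E23 and E25 and 20.6, 59.3 and 71.6 CPM in EPI of E18, E21 and E25, against from 0.723 to 26.1 CPM (median 12.4) in EXMC. STB of E25 stood far above the other STB embryos. SLC5A6 rose in STB (log2 fold change 1.31 ± 0.42 (SE), adjusted p = 0.0248). Without E21 or E25, SLC5A6 missed the threshold in STB (log2 fold change 0.15 to 1.22, adjusted p = 0.0746 to 0.875). SLC5A12, a sodium lactate carrier of kidney, was highest in Extraembryonic Mesoderm, from 0 to 69.2 CPM (median 3.96), where its embryos had 2.37 CPM in E18, 0.816 CPM in E20, 24.1 CPM in E21, 69.2 CPM in E22, 0 CPM in E23 and 5.56 CPM in E25, and at most 1.8 CPM in EXMC. Its levels in Extraembryonic Mesoderm thus differed widely between embryos, and SLC5A12 rose there against the mean of the other classes (log2 fold change 4.83 ± 0.83 (SE), adjusted p = 6.7e-05). For SLC5A12 in Extraembryonic Mesoderm the log2 fold change was 5.83 without E25, with the call kept. SLC5A6 (0.2 to 1.14, adjusted p = 0.647 to 0.869) in STB missed the threshold in sums per library or with at least 20 cells per sum. SLC5A12 (4.49, adjusted p = 1) in Extraembryonic Mesoderm missed the threshold in sums per library.

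Lactate and related monocarboxylates leave and enter cells through SLC16A1 (MCT1). SLC16A1 ranged from 123 to 653 CPM (median 232) in EVT and from 91 to 584 CPM (median 334) in CTB, against from 27.8 to 99.3 CPM (median 48) in EXMC. The EVT range lay wholly above that of EXMC, and the CTB range all but wholly. SLC16A1 rose in EVT (log2 fold change 1.27 ± 0.27 (SE), adjusted p = 0.000876) and in CTB (log2 fold change 1.25 ± 0.24 (SE), adjusted p = 0.000219), and fell in EXMC (log2 fold change -1.5 ± 0.28 (SE), adjusted p = 0.000169). Outside the tested classes it was 298 and 251 CPM in Endoderm of E18 and E21 and 254 and 183 CPM in Non-neural ectoderm of E22 and E23. SLC16A3 (MCT4), the lactate exporter of glycolytic tissue, stayed at or under 5.9 ± 5.52 CPM, its mean in STB (SD, n = 4). It passed as a fall in 1 class contrast, not detailed here.

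SLC16A11 and SLC16A13, whose substrates are less well defined, were both higher in STB and CTB than in EXMC. SLC16A11 had 8.8, 21, 47.2 and 22.6 CPM in STB of E16-2, E20, E23 and E25, from 3.67 to 36.3 CPM (median 10.7) in CTB and 48.5, 14.6 and 19.3 CPM in EPI of E18, E21 and E25, against at most 2.08 CPM in EXMC, 0.93 in Extraembryonic Mesoderm and 0.819 in Mesoderm, with no overlap. In EVT it ranged from 0.257 to 9.02 CPM (median 1.59), which overlapped EXMC. SLC16A11 rose in STB (log2 fold change 3.87 ± 0.63 (SE), adjusted p = 2.77e-05), CTB (log2 fold change 2.43 ± 0.42 (SE), adjusted p = 7.21e-05) and EPI (log2 fold change 3.19 ± 0.64 (SE), adjusted p = 0.000409). SLC16A13 had 8.8, 27.5, 3.47 and 3.54 CPM in STB and ranged from 0.206 to 8.22 CPM (median 3.55) in CTB, against from 0.512 to 6.93 CPM (median 0.785) in EVT and at most 0.909 CPM in EXMC, and rose in STB (log2 fold change 3.79 ± 0.72 (SE), adjusted p = 0.000243) and CTB (log2 fold change 2.5 ± 0.51 (SE), adjusted p = 0.000554). For SLC16A11 in STB the log2 fold change was 3.1 without E20, with the call kept. For SLC16A11 in EPI the log2 fold change was 2.57 without E18, with the call kept. For SLC16A13 in STB the log2 fold change was 4.4 without E18, with the call kept. In the opposite direction, SLC16A14, a member of uncertain substrate, ranged from 17.5 to 114 CPM (median 54) in EXMC and from 11.5 to 43.2 CPM (median 18.6) in Extraembryonic Mesoderm, against from 0.259 to 6.15 CPM (median 0.445) in CTB. EXMC and CTB did not overlap, and SLC16A14 rose in EXMC (log2 fold change 3.62 ± 0.39 (SE), adjusted p = 2.71e-08) and fell in CTB (log2 fold change -3.42 ± 0.56 (SE), adjusted p = 3.22e-05). SLC16A9, a carnitine exporter, was lowest in CTB, from 0 to 4.13 CPM (median 0.695), against from 20.3 to 47.9 CPM (median 32.7) in Extraembryonic Mesoderm and 98.8 and 71.4 CPM in Endoderm of E18 and E21, and fell in CTB (log2 fold change -3.28 ± 0.51 (SE), adjusted p = 1.28e-05). For SLC16A9 in CTB the log2 fold change was -3.91 without E23, with the call kept. SLC16A13 (2.87, adjusted p = 0.363) in STB missed the threshold in sums per library.

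Of the 17 SLC22A members 10 were tested, and 5 rose and 0 fell in EXMC (all genes 16% and 8.52%). SLC22A3 (OCT3), a carrier of organic cations and monoamines known from placenta, ranged from 7.3 to 51.3 CPM (median 20.3) in EXMC and at most to 0.518 CPM in CTB, with no overlap. It rose in EXMC (log2 fold change 4.07 ± 0.57 (SE), adjusted p = 2.8e-06) and fell in CTB (log2 fold change -4.32 ± 0.84 (SE), adjusted p = 0.00032). For SLC22A3 in EXMC the log2 fold change was 4.76 without E25, with the call kept. SLC22A16, a carnitine carrier of testis, ranged from 1.28 to 59.3 CPM (median 30.5) in EXMC and from 0 to 65.8 CPM (median 15.8) in Extraembryonic Mesoderm, against from 0 to 2.47 CPM (median 0.96) in CTB, and rose in EXMC (log2 fold change 3.49 ± 0.54 (SE), adjusted p = 1.4e-05). SLC22A17, a receptor for the iron-binding protein lipocalin 2, ranged from 64.4 to 121 CPM (median 84.7) in Extraembryonic Mesoderm and from 24.1 to 97.2 CPM (median 66.1) in EXMC, against from 3.34 to 17.9 CPM (median 9.15) in CTB, again with no overlap. It rose in Extraembryonic Mesoderm (log2 fold change 2.05 ± 0.28 (SE), adjusted p = 1.56e-06) and in EXMC (1.75, adjusted p = 4.45e-06). SLC22A4, the carrier of the antioxidant ergothioneine, had 11.8 CPM in E18, 39.9 CPM in E20, 0 CPM in E21, 1.21 CPM in E23, 10.4 CPM in E24 and 1.44 CPM in E25 in EVT, against at most 0.552 CPM in STB and 1.16 CPM in EXMC. In CTB it ranged from 0 to 12 CPM (median 0.197), and the highest CTB embryo, E24, lay above 5 of the 6 EVT embryos. E18, E20 and E24 were above 10 CPM and E21 was at 0, and SLC22A4 rose in EVT (log2 fold change 3.87 ± 0.76 (SE), adjusted p = 0.000353). SLC22A5 (OCTN2), the main carnitine carrier, ranged from 3.21 to 14.7 CPM (median 7.84) in CTB and had 1.6, 4.78, 0.463 and 0 CPM in STB. It rose in CTB (log2 fold change 1.93 ± 0.56 (SE), adjusted p = 0.0132). Without E18, SLC22A5 missed the threshold in CTB (log2 fold change 1.32, adjusted p = 0.12). For SLC22A5 in CTB the log2 fold change was 3.12 without E22, with the call kept. SLC22A3 (-3.38, adjusted p = 1) in CTB and SLC22A4 (4.21, adjusted p = 1) in EVT missed the threshold in sums per library.

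The 6 fatty acid carriers of SLC27A were all tested. SLC27A2, a very long chain acyl-CoA synthetase known from liver and kidney, had CTB values from 3.5 to 199.7 CPM (median 39.99), against from 0 to 4.97 CPM (median 0.527) in EXMC. It rose 11.9-fold in CTB (log2 fold change 3.58 ± 0.36 (SE), adjusted p = 7.74e-09) and fell in EXMC (log2 fold change -3.02 ± 0.51 (SE), adjusted p = 4.21e-05). The CTB embryos differed by more than 10 times, with 199.7 CPM in E23, 128 CPM in E20 and 3.5 CPM in the lowest. SLC27A4 (FATP4), a fatty acid carrier of gut and placenta, had 19.99 CPM in E16-2, 24.9 CPM in E20, 22.9 CPM in E23 and 21.7 CPM in E25 in STB, and at most 7.68 CPM in EVT, 5.41 CPM in CTB and 4.49 CPM in EXMC. The 4 STB values lay close together and above all others, and SLC27A4 rose 12.5-fold in STB (log2 fold change 3.65 ± 0.45 (SE), adjusted p = 3.85e-07). SLC27A3 was higher in EPI (8.35, 24.6 and 5.6 CPM in E18, E21 and E25) than in CTB, from 0 to 2.4 CPM (median 1.09) (log2 fold change 2.39 ± 0.79 (SE), adjusted p = 0.0307, against the mean of the other classes). Extraembryonic Mesoderm of E20, E23 and E25 lay above EPI of E18 and E25, so only EPI of E21 stood above that class. Without E18 or E21, SLC27A3 missed the threshold in EPI (log2 fold change 1.26 to 2.88, adjusted p = 0.0535 to 0.415). SLC27A5, a bile acid ligase of liver, had a mean of 26.2 ± 10.5 CPM in Mesoderm and 6.75 ± 1.25 CPM in EVT (SD; n = 3 and 6) and passed in no class. SLC27A4 (2.4, adjusted p = 0.267) in STB missed the threshold in sums per library. SLC27A3 (1.42 to 1.72, adjusted p = 0.122 to 0.542) in EPI missed the threshold with at least 20 cells per sum or with at least 5 cells per sum.

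**Figure D3:**
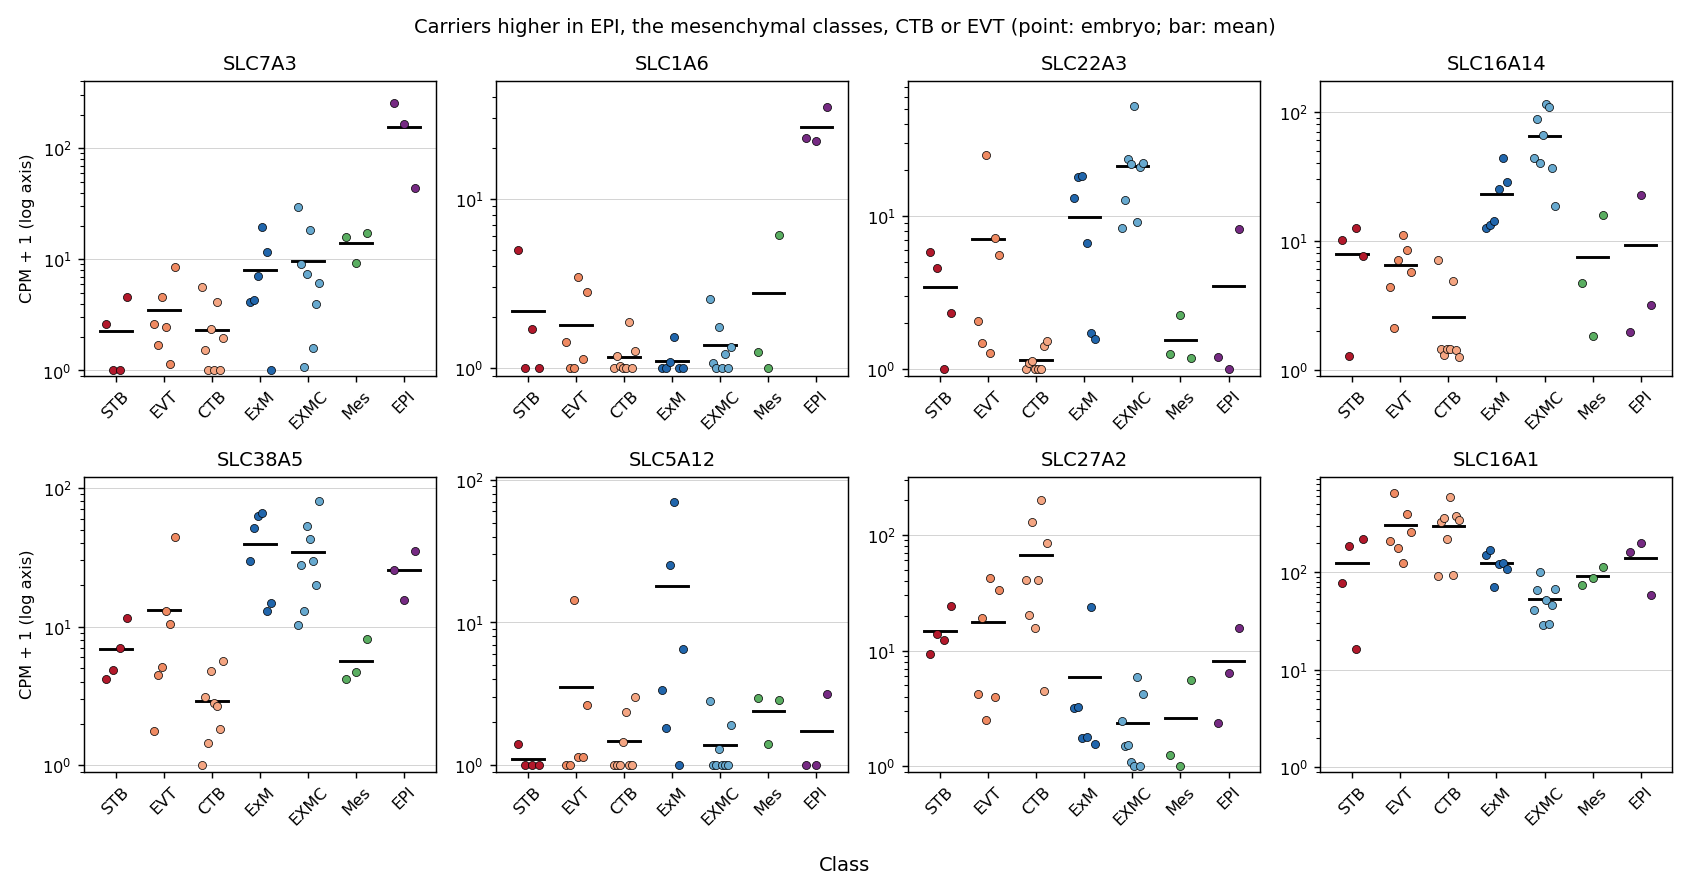
Levels of SLC7A3, SLC1A6, SLC22A3, SLC16A14, SLC38A5, SLC5A12, SLC27A2 and SLC16A1 in 7 classes (CPM + 1, log axis). Each point is 1 embryo and each bar the class mean. EPI leads for SLC7A3 and SLC1A6, EXMC for SLC22A3 and SLC16A14, and CTB for SLC27A2.

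Within trophoblast, STB and CTB were compared first, since the syncytium forms from cytotrophoblast. Against CTB, 12 of 70 members rose and 4 fell in STB (all genes 10.5% and 8.41%). All 6 EXMC markers were higher in STB than in CTB too, at the summed levels given above, and their part in these results was not tested. The rises joined amino acid, lysosomal, sugar and fatty acid carriers: SLC2A12 (5.4, adjusted p = 0.00013), SLC38A3 (4.6, adjusted p = 0.00228), SLC7A8 (4.22, adjusted p = 1.48e-05), SLC27A4 (3.26, adjusted p = 5.87e-05), SLC38A7 (2.73, adjusted p = 0.000156), SLC38A9 (2.48, adjusted p = 3.29e-06) and SLC2A1 (1.74, adjusted p = 0.000163), given as log2 fold changes with edgeR's adjusted p. SLC27A2 fell (-2.77, adjusted p = 0.00418), with 8.4, 12.8, 11.3 and 23 CPM in STB of E16-2, E20, E23 and E25. SLC1A3 fell (-1.79, adjusted p = 0.0052) and SLC16A1 fell (-1.21, adjusted p = 0.0464), SLC16A1 with 76, 183, 15.5 and 216 CPM in the same STB embryos. Without E23, SLC1A3 missed the threshold in STB against CTB (log2 fold change -1.51, adjusted p = 0.063). For SLC1A3 in STB against CTB the log2 fold change was -2.47 without E25, with the call kept. Without E18, E20, E22, E23 or E24, SLC16A1 missed the threshold in STB against CTB (log2 fold change -0.9 to -1.25, adjusted p = 0.0561 to 0.14). For SLC2A12 in STB against CTB the log2 fold change was 4.67 without E23 and 6.49 without E25, with the call kept. For SLC38A3 in STB against CTB the log2 fold change was 5.29 without E20 and 4.00 without E25, with the call kept. SLC38A3 (5.04, adjusted p = 0.159), SLC27A4 (2.03, adjusted p = 0.415), SLC38A7 (2.79, adjusted p = 0.103), SLC38A9 (1.68, adjusted p = 0.181), SLC27A2 (-3.4, adjusted p = 0.285) and SLC1A3 (-0.98, adjusted p = 0.656) in STB against CTB missed the threshold in sums per library. SLC16A1 (-1.11 to -1.61, adjusted p = 0.0723 to 0.13) in STB against CTB missed the threshold with size factors of the relative log expression method or in sums per library.

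Against EVT, 10 members rose and 3 fell in STB (all genes 5.75% and 6.77%). SLC7A8 rose 33.1-fold (log2 fold change 5.05 ± 0.72 (SE), adjusted p = 9.25e-06), SLC38A9 rose 5.78-fold (log2 fold change 2.53 ± 0.37 (SE), adjusted p = 1.17e-05) and SLC16A11 rose (log2 fold change 3.78 ± 0.76 (SE), adjusted p = 0.000712). For SLC16A11 in STB against EVT the log2 fold change was 2.92 without E20 and 4.53 without E25, with the call kept. SLC2A1 rose 2.88-fold (log2 fold change 1.53 ± 0.34 (SE), adjusted p = 0.00204) and SLC2A12 rose (log2 fold change 3.99 ± 1.01 (SE), adjusted p = 0.00596). Without E23, SLC2A1 missed the threshold in STB against EVT (log2 fold change 1.03, adjusted p = 0.0557). Without E23, SLC2A12 missed the threshold in STB against EVT (log2 fold change 2.98, adjusted p = 0.155). SLC27A4 (2.17, adjusted p = 0.00884) and SLC38A7 (2.06, adjusted p = 0.00621) also rose. Without E25, SLC27A4 missed the threshold in STB against EVT (log2 fold change 1.86, adjusted p = 0.0592). Without E23, SLC38A7 missed the threshold in STB against EVT (log2 fold change 1.75, adjusted p = 0.0694). SLC5A6 rose as well (1.52, adjusted p = 0.0379). Without E18, E21, E24 or E25, SLC5A6 missed the threshold in STB against EVT (log2 fold change 0.39 to 1.52, adjusted p = 0.0689 to 0.638). SLC22A4 fell (log2 fold change -5.67 ± 1.55 (SE), adjusted p = 0.011). Without E20, SLC22A4 missed the threshold in STB against EVT (log2 fold change -7.55, adjusted p = 0.0713). SLC38A9 (1.94, adjusted p = 0.0911) in STB against EVT missed the threshold in sums per library. SLC27A4 (0.82 to 1.95, adjusted p = 0.0512 to 0.856) in STB against EVT missed the threshold in sums per library, with at least 20 cells per sum or without EVT clusters 7 and 18. SLC38A7 (1.75 to 2.51, adjusted p = 0.103 to 0.162) and SLC22A4 (-3.63 to -5.42, adjusted p = 0.0781 to 1) in STB against EVT missed the threshold in sums per library or with at least 20 cells per sum. SLC5A6 (0.14 to 1.47, adjusted p = 0.0644 to 0.878) in STB against EVT missed the threshold in sums per library, with at least 20 cells per sum, without EVT cluster 18 or without EVT clusters 7 and 18.

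EVT, the trophoblast that invades the uterus, differed from CTB in 10 members that rose and 5 that fell (all genes 11.2% and 5.01%). SLC22A4 rose (log2 fold change 4.04 ± 1.03 (SE), adjusted p = 0.00657) and SLC7A1 rose (log2 fold change 1.61 ± 0.48 (SE), adjusted p = 0.0194). Without E20, SLC22A4 missed the threshold in EVT against CTB (log2 fold change 3.52, adjusted p = 0.0624). For SLC22A4 in EVT against CTB the log2 fold change was 4.98 without E24, with the call kept. Without E20, E23 or E24, SLC7A1 missed the threshold in EVT against CTB (log2 fold change 1.48 to 1.53, adjusted p = 0.0566 to 0.0725). SLC16A9 rose (log2 fold change 2.93 ± 0.58 (SE), adjusted p = 0.000529), with from 0.937 to 31.9 CPM (median 9.9) in EVT. For SLC16A9 in EVT against CTB the log2 fold change was 2.15 without E18, with the call kept. SLC1A3 fell (log2 fold change -1.58 ± 0.36 (SE), adjusted p = 0.00252), with from 9.74 to 37.4 CPM (median 13.5) in EVT, a range that overlapped that of CTB only in its highest embryo. SLC27A2 fell (log2 fold change -1.97 ± 0.56 (SE), adjusted p = 0.0147) and SLC7A6 fell (log2 fold change -1.26 ± 0.39 (SE), adjusted p = 0.0251). Without E20 or E23, SLC27A2 missed the threshold in EVT against CTB (log2 fold change -1.82 to -1.9, adjusted p = 0.0574 to 0.0575). Without E18, E20 or E24, SLC7A6 missed the threshold in EVT against CTB (log2 fold change -0.91 to -1.27, adjusted p = 0.0673 to 0.0928). SLC7A1 (1.39, adjusted p = 0.08) in EVT against CTB missed the threshold in the embryos that hold all of CTB, EVT, EXMC and Extraembryonic Mesoderm. SLC27A2 (-2.19, adjusted p = 0.057) in EVT against CTB missed the threshold without EVT clusters 7 and 18. SLC7A6 (-1.22 to -1.26, adjusted p = 0.0578 to 0.102) in EVT against CTB missed the threshold with at least 20 cells per sum or in the embryos that hold all of CTB, EVT, EXMC and Extraembryonic Mesoderm.

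Several members that rose in EVT against CTB were also high in EXMC, and EXMC markers were present in EVT at the levels given above. SLC22A17 rose (log2 fold change 1.47 ± 0.38 (SE), adjusted p = 0.00774), and with EVT cells of cluster 18 left out it missed the threshold (log2 fold change 0.87, adjusted p = 0.132). Without E21, SLC22A17 missed the threshold in EVT against CTB (log2 fold change 1.09, adjusted p = 0.091). SLC38A5 rose (log2 fold change 2.48 ± 0.55 (SE), adjusted p = 0.00197), and missed it with clusters 7 and 18 left out (log2 fold change 1.03, adjusted p = 0.335). The part of EXMC RNA or cells in these results was not tested. SLC2A10, an intracellular member of the sugar family, also rose (log2 fold change 1.81 ± 0.55 (SE), adjusted p = 0.0226). Without E18, E24 or E25, SLC2A10 missed the threshold in EVT against CTB (log2 fold change 1.45 to 1.86, adjusted p = 0.0586 to 0.0901). SLC22A17 (0.61, adjusted p = 0.381) in EVT against CTB missed the threshold without EVT clusters 7 and 18. SLC38A5 (2.05, adjusted p = 0.0745) and SLC2A10 (1.53, adjusted p = 0.108) in EVT against CTB missed the threshold in the embryos that hold all of CTB, EVT, EXMC and Extraembryonic Mesoderm.

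The authors' fine clusters divide CTB in 3 (0, 12 and 14) and EVT in 5 (7, 13, 18, 19 and 23), and leave STB as 1 (16). Most fine clusters came mainly from 1 or 2 embryos, so their pooled levels carry no test. CTB cluster 12 has 137 of its 138 cells from E20, and cluster 14 has 112 of 125 from E23. SLC27A2 was 204 CPM in CTB cluster 14 and 133 CPM in cluster 12, against 39.7 CPM in cluster 0. In the 7 embryos with at least 10 cells of cluster 0, it was 40.1 in E16-2, 19.6 in E18, 1.12 in E20, 14.6 in E21, 39.9 in E22, 3.5 in E24 and 77.5 in E25. Inside E20 alone, SLC27A2 was 99.9 CPM in cluster 14, 133 CPM in cluster 12 and 1.12 CPM in cluster 0. EVT cluster 7 had 60.9 CPM, but its cells were shallow, with a median of 10216 counts, and 130 of its 192 cells came from E23; EVT cluster 13 had 1.6 CPM.

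SLC16A1 varied as widely among EVT clusters. It was 819 CPM in cluster 19, found in E20 only, 392 CPM in cluster 13, 189.9 CPM in cluster 23, 167 CPM in cluster 18 and 55.1 CPM in cluster 7. SLC22A4 stood out in cluster 23 with 120.3 CPM, against at most 7.61 CPM in any other trophoblast cluster, all pooled over embryos. By embryo, cluster 23 had 39.9 in E18, 191 in E20 and 26.7 in E24. Cluster 7 of E20, with 39.3 CPM, lay inside this range. Cluster 7 of E18 lay under it, with 16 CPM from 1 count, and so did CTB cluster 0 of E24, with 12 CPM. Cluster 23 was also highest among EVT clusters for SLC7A1 (76.4 CPM) and SLC7A7 (34.8 CPM). Its SLC7A7 values were 40.4 in E18, 38.9 in E20 and 7.56 in E24. Cluster 18 was highest among EVT clusters for SLC22A17 (52.1 CPM), SLC38A5 (31.2 CPM) and SLC22A3 (12 CPM), all of them named above as high in EXMC. SLC7A8 was 767 CPM in STB, against 72.6 CPM in CTB cluster 12.

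**Figure D4:**
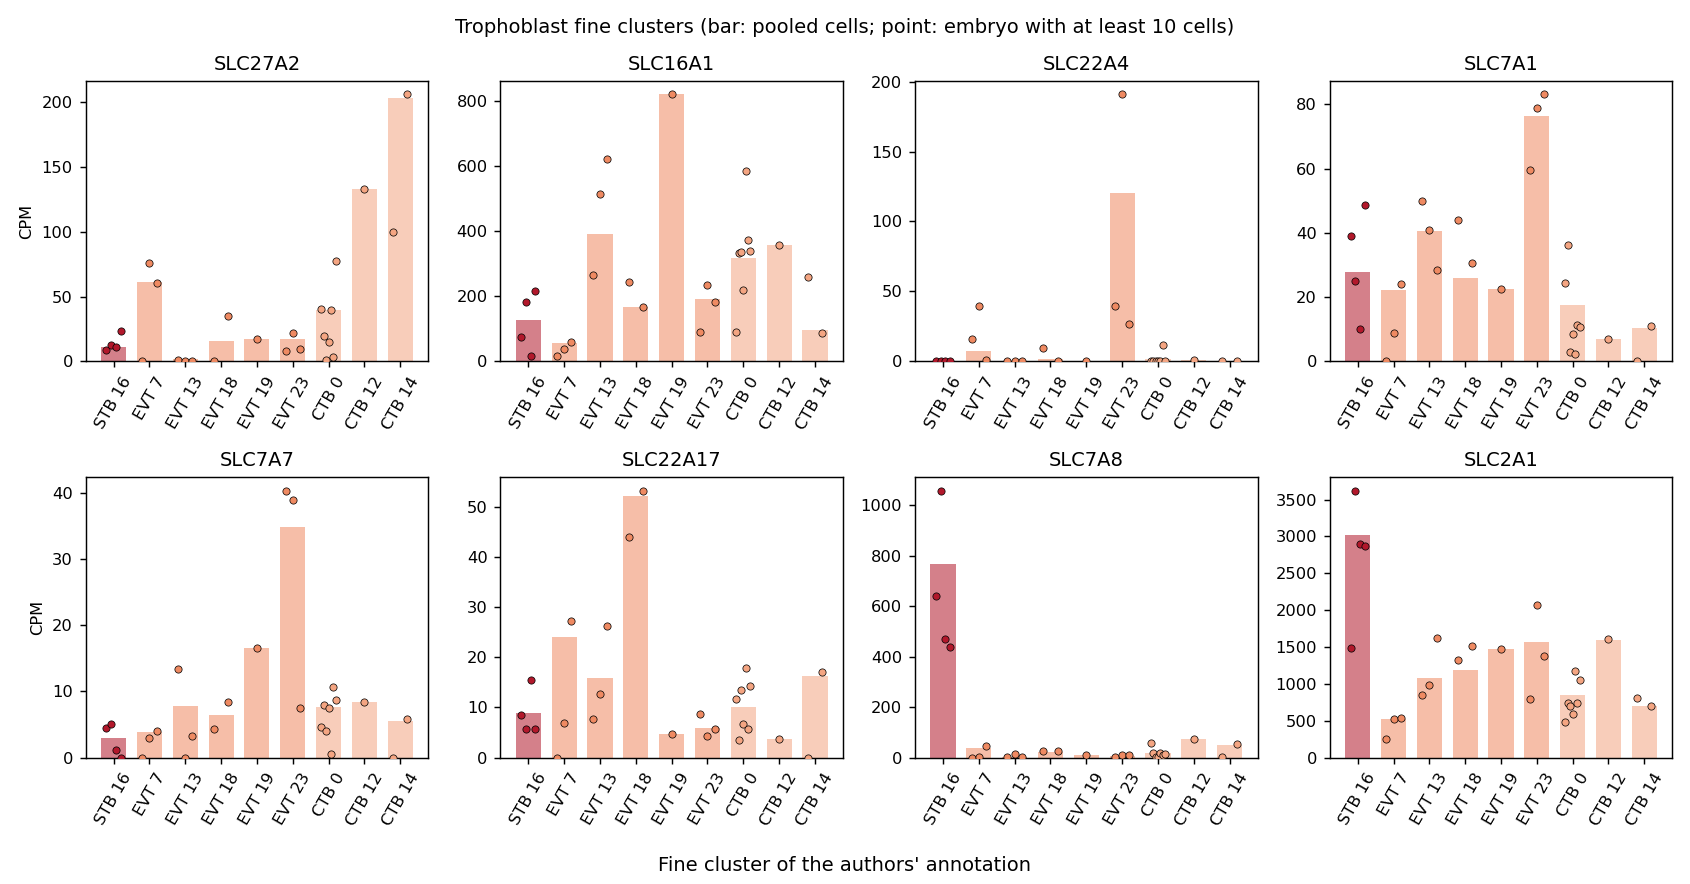
Pooled level of SLC27A2, SLC16A1, SLC22A4, SLC7A1, SLC7A7, SLC22A17, SLC7A8 and SLC2A1 in the fine clusters of STB, EVT and CTB (CPM). Bars pool all cells of a cluster and points are embryos with at least 10 cells of it. SLC22A4 has its highest bar in EVT cluster 23 and SLC27A2 in CTB cluster 14.

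Extraembryonic Mesoderm and EXMC, the mesenchymal classes, differed in few members. Of 70 tested, 2 rose and 2 fell in Extraembryonic Mesoderm against EXMC (all genes 1.35% and 0.833%). SLC2A1 rose 3.39-fold (log2 fold change 1.76 ± 0.28 (SE), adjusted p = 0.000338), with 1934 CPM in E18, 2151 CPM in E20, 1098 CPM in E21, 1447 CPM in E22, 528 CPM in E23 and 2625 CPM in E25 in Extraembryonic Mesoderm. These values overlapped those of EXMC only at the low end. SLC5A12 rose (log2 fold change 5.76 ± 1.22 (SE), adjusted p = 0.00721). SLC38A1 fell (log2 fold change -0.88 ± 0.24 (SE), adjusted p = 0.048). Without E16-2, E18, E20, E21, E22, E24 or E25, SLC38A1 missed the threshold in Extraembryonic Mesoderm against EXMC (log2 fold change -0.82 to -1.02, adjusted p = 0.0612 to 0.136). SLC7A14, a lysosomal member of the cationic amino acid group named here after its values were seen, fell (-6.00, adjusted p = 0.0194), with from 0 to 1.09 CPM (median 0) in Extraembryonic Mesoderm and from 0 to 16.6 CPM (median 3.12) in EXMC. Without E18, E20 or E22, SLC7A14 missed the threshold in Extraembryonic Mesoderm against EXMC (log2 fold change -5.15 to -5.6, adjusted p = 0.0605 to 0.0992). For SLC7A14 in Extraembryonic Mesoderm against EXMC the log2 fold change was -7.84 without E21, with the call kept. SLC38A1 (-0.72 to -0.87, adjusted p = 0.0868 to 0.165) in Extraembryonic Mesoderm against EXMC missed the threshold with at least 20 cells per sum, with at least 5 cells per sum or in the embryos that hold all of CTB, EVT, EXMC and Extraembryonic Mesoderm. SLC7A14 (-3.85 to -6.29, adjusted p = 0.0569 to 0.113) in Extraembryonic Mesoderm against EXMC missed the threshold in sums per library, with at least 20 cells per sum, with at least 5 cells per sum or in the embryos that hold all of CTB, EVT, EXMC and Extraembryonic Mesoderm.

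Change with embryonic day was tested as a slope within the 4 classes that had at least 5 embryos. Since each day after E16 is 1 embryo, day and embryo cannot be told apart. None of 26 members tested in CTB, 31 in EVT, 39 in EXMC and 26 in Extraembryonic Mesoderm passed with edgeR (0.0% of all genes in each class), and at an unadjusted p under 0.05 there were 2, 1, 1 and 4 (all genes 7.71%, 6.92%, 3.19% and 7.78%). In CTB the lowest p was that of SLC7A5, at -0.24 ± 0.05 log2 per day (unadjusted p = 0.000361, adjusted p = 0.31). Its CTB level was 77 CPM in E16-2, 52.8 CPM in E18, 36.7 CPM in E20, 27.2 CPM in E21, 30.3 CPM in E22, 33 CPM in E23, 15 CPM in E24 and 12.9 CPM in E25. The highest values were those of the early embryos E16-2 and E18. SLC16A10, which carries aromatic amino acids, had 0.34 ± 0.15 log2 per day (unadjusted p = 0.0398, adjusted p = 0.641). In EVT SLC7A7 had -0.23 ± 0.10 log2 per day (unadjusted p = 0.0472, adjusted p = 0.712), with 20.9 CPM in E18, 19.6 CPM in E20, 11.8 CPM in E21, 8.5 CPM in E23, 4.95 CPM in E24 and 8.84 CPM in E25. In EXMC SLC38A5 had 0.25 ± 0.09 log2 per day (unadjusted p = 0.0193, adjusted p = 0.998), with 9.3 CPM in E16-2 and 79 CPM in E25. In Extraembryonic Mesoderm SLC38A10 had -0.3 ± 0.12 log2 per day (unadjusted p = 0.0281, adjusted p = 0.594) and SLC1A5 0.33 ± 0.13 log2 per day (unadjusted p = 0.0308, adjusted p = 0.598), and neither passed. DESeq2 called SLC7A5 in CTB (adjusted p = 0.00124) and none in the other 3 classes.

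**Figure D5:**
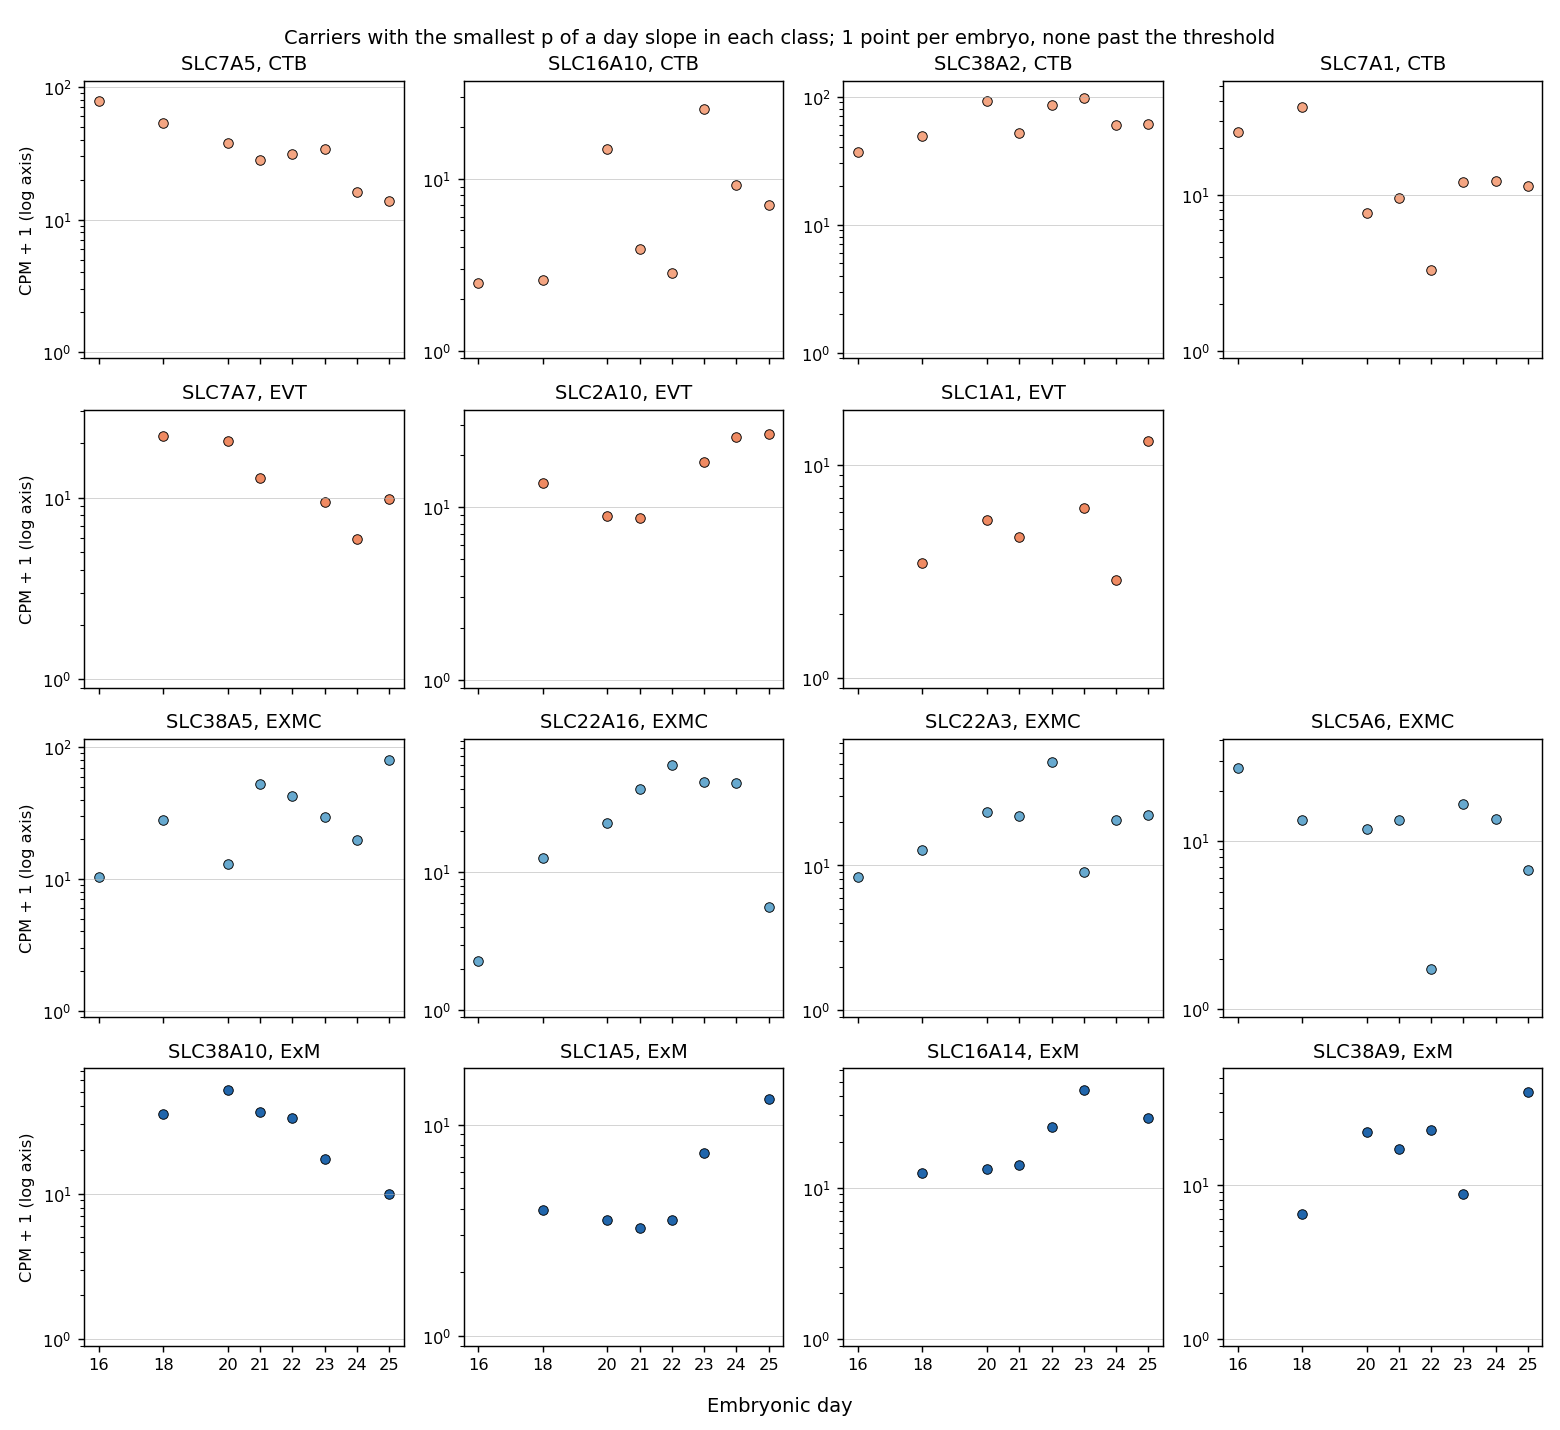
Level of 15 members against embryonic day (E16 to E25), 3 in EVT and 4 in each of CTB, EXMC and Extraembryonic Mesoderm (CPM + 1, log axis). Each point is 1 embryo. None of these slopes passed the test after adjustment.

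Other carriers and partners of the same nutrients were taken from lists chosen with earlier results of these data known. Of 45 other nutrient carriers and receptors 38 were tested, and in STB 12 rose and 2 fell, beside 12.1% and 8.37% of all genes. MFSD2A, a carrier of the fatty acid DHA in lysophospholipid form, averaged 38.5 ± 14 CPM in STB, against 0.229 ± 0.403 CPM in CTB (SD; n = 4 and 8), and rose against the mean of the other classes (log2 fold change 6.05 ± 0.70 (SE), adjusted p = 1.05e-07). TFRC, the transferrin receptor for iron uptake, averaged 868 ± 175 CPM in STB, against 121 ± 37.2 CPM in CTB, and rose (log2 fold change 2.91 ± 0.22 (SE), adjusted p = 3.89e-11). The iron exporter SLC40A1 (3.95, adjusted p = 5.55e-08), the large neutral amino acid carrier SLC43A2 (4.3, adjusted p = 1.94e-07), the folate carrier SLC19A1 (4.12, adjusted p = 6.03e-06) and the folate receptor FOLR1 (2.46, adjusted p = 1.16e-06) rose in STB too, as log2 fold changes. In EVT 10 rose and 5 fell (all genes 12.5% and 3.55%), CD36, a fatty acid receptor, among the rises (2.92, adjusted p = 1.19e-06). Endothelium markers (KDR, CDH5 and PECAM1) summed to 387 to 1631 CPM in the EVT embryos and to 60 to 262 CPM in the CTB embryos. Their part in the CD36 result was not tested. In EPI 4 rose and 9 fell (9.29% and 10.1%). MFSD2A (6.45, adjusted p = 0.0693), SLC43A2 (3.28, adjusted p = 0.0766) and FOLR1 (2.31, adjusted p = 0.109) in STB missed the threshold in sums per library.

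Of 24 partners and genes of the amino acid response 22 were tested. In EXMC 7 rose and 3 fell, beside 16% and 8.52% of all genes. ATF4, the transcription factor that answers amino acid shortage, averaged 607 ± 153 CPM in EXMC, against 307 ± 87.7 CPM in CTB (SD, n = 8 each), and rose (log2 fold change 0.83 ± 0.11 (SE), adjusted p = 1.38e-06). TRIB3 (2.14, adjusted p = 0.000944), CHAC1 (1.53, adjusted p = 0.0176) and DDIT3 (1.3, adjusted p = 0.00278), which ATF4 is known to induce, were among the 7 rises in EXMC. Results of other genes of the list, such as ASNS, PHGDH and SESN2, are not given here. The carriers SLC7A5, SLC7A11, SLC3A2, SLC1A4 and SLC1A5 passed in no class, and a shared response was not tested. Without E20 or E21, CHAC1 missed the threshold in EXMC (log2 fold change 1.26 to 1.4, adjusted p = 0.0642 to 0.114). EMB, a chaperone that helps monocarboxylate carriers reach the membrane, rose in EVT (1.59, adjusted p = 3.93e-07) and CTB (1.31, adjusted p = 1.67e-06) and fell in EXMC (-0.88, adjusted p = 0.00163). SLC16A1 moved in the same directions in these classes, and a link between them was not tested. The result of BSG, also in this list, is not given here. In STB 2 rose and 4 fell (all genes 12.1% and 8.37%), GLUL, which makes glutamine, among the falls (-1.03, adjusted p = 0.011). CHAC1 (1.52, adjusted p = 0.0728) in EXMC missed the threshold with at least 20 cells per sum. GLUL (-0.72 to -1.14, adjusted p = 0.0535 to 0.115) in STB missed the threshold with at least 20 cells per sum or with at least 5 cells per sum.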

How the data were processed

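RNA of single cells from cultured wild type cynomolgus monkey embryos was measured by scChaRM-seq. The deposited table holds whole-number counts per gene and cell. The authors made these counts from trimmed and aligned reads, and the submitters' processing notes name cutadapt 1.15, STAR 2.6.0a and HTSeq 0.10.0. The sources used here name no genome build, no strand setting, no doublet step and no counting unit (reads or molecules). Classes, fine clusters and embryos are those of the authors' deposited cell annotation.

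Of 44 libraries, 2 were left out because their title and time label name different days, which left 42 libraries and 3533 of 3682 cells. In 6 further libraries of E23 the code in the label differed from that in the cell names, and they were kept. Counts were summed per embryo and class where at least 10 cells were present. That gave 38 sums in 7 classes of at least 3 embryos. They were tested with edgeR 4.0.16 (R 4.3.3, filterByExpr, TMM scaling, quasi-likelihood test, embryo as a block). The Benjamini-Hochberg method adjusted p-values over all genes tested and all contrasts of a set. The sets were the classes against the mean of the others, the trophoblast pairs, and Extraembryonic Mesoderm against EXMC. Slopes were adjusted over the genes of each class. CPM used the plain total of each sum. The fit was also run on simulated data drawn without an embryo effect, which do not test the embryo block. The outcome of that run is not given here. Class contrasts take the embryo as a block, so their p-values rest on how class differences vary between embryos. The day slopes have no block. Embryo numbers after E16 coincide with days, so the p-values of slopes rest on the spread between embryos of different days. The libraries of 1 embryo are not independent. Intervals of counting error are not given, since the spread between embryos is printed.

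The families, lists and tests were chosen with earlier results of these data known. Named members were, in each contrast, those past the threshold with a mean of at least 10 CPM in 1 of the compared classes, up to 5 of the largest rises and 5 of the largest falls (10 each between trophoblast classes); for day slopes, up to 4 with the smallest unadjusted p; and a list of 17 well-known carriers whatever their values; 31 further results, SLC38A4 and SLC7A14 among the genes, were picked after their values were seen. The alternatives were DESeq2 1.42.0, other size factors, no filter on low counts, other minimum cell numbers, sums per library and each embryo left out. Leaving out EVT fine clusters and keeping only embryos that hold all of 4 classes were chosen after seeing the data. E16-1 had no class with enough cells in the fit. Some results are not reported here.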

Additional observations from a re-analysis of the deposited data

Results flagged for a closer look

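Groups of 4 to 8 embryos, each 1 carrier in 1 class, were examined where the highest embryo had at least 10 CPM. Of 142 such groups 11 held 1 embryo whose level stood apart from all the others of its class by Dixon's criterion. Some groups entered only through the embryo that stood apart, so this count cannot be set against a rate expected by chance. In CTB, the ergothioneine carrier SLC22A4 was 11.95 CPM in E24, against 1.221 CPM in the next embryo. In the same class the light chain SLC7A7 was 0.4586 CPM in E22, against 4.672 CPM in the next lowest, and its relative SLC7A6 was 16.82 CPM in E23, against 32.3 CPM.

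In EVT, SLC7A6 was 1.203 CPM in E18, against 13.09 CPM in the next lowest embryo. EVT of E21 stood high for the lactate carrier SLC5A12, at 13.31 CPM against 1.623 CPM in the next embryo, and for the cystine exchanger SLC7A11, at 10.24 CPM against 1.875 CPM. In STB, SLC7A5 was 19.49 CPM in E25, against 53.21 CPM in the next lowest of 4 embryos.

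In EXMC, the inositol carrier SLC2A13 was 4.706 CPM in E23, against 17.84 CPM in the next lowest embryo. Extraembryonic Mesoderm of E23 stood high for SLC27A2, at 22.64 CPM against 2.234 CPM in the next embryo, and low for SLC38A1, at 21.93 CPM against 65.01 CPM. In that class SLC38A7 was 1.111 CPM in E25, against 12.03 CPM in the next lowest embryo.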

How the results depend on the processing

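Of 121 calls that the text or the naming rule gives, 55 were kept under every alternative run and 74 under all but sums per library; 39 were lost when 1 or more embryos were left out in turn. Sums per library with the library as a block ended most of the other calls, above all in STB. With size factors of the relative log expression method the median of all genes moved by 0.105 (log2) in EPI against the other classes, from -0.073 with TMM to 0.032, and by less in the other contrasts.

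Members called in at least 1 class numbered 54, and 49 to 54 without 1 embryo. EVT against CTB had 15, but 9 with at least 20 cells per sum and no EVT cluster 18, 9 in embryos with all of CTB, EVT, EXMC and Extraembryonic Mesoderm, and 9 (without E24) to 16 (without E16-2) with 1 embryo left out. STB against CTB had 16, but 3 in sums per library, and 10 (without E20) to 17 (without E18). STB against EVT had 13, but 5 in sums per library, and 9 to 14 without 1 embryo. Extraembryonic Mesoderm against EXMC had 4, but 7 with DESeq2, 8 in sums per library, 2 with at least 20 cells per sum, 2 with at least 5, 2 with at least 20 and no EVT cluster 18, and 2 (without E18, E20 or E22) to 6 (without E23). Slopes of day gave 0 members in each class, and 0 without any 1 embryo. In CTB 1 was called with DESeq2, 1 with libraries taken as independent and 1 with the library code as a term. In EVT 1 was called with libraries taken as independent, and in EXMC 1 with libraries taken as independent and 5 with the code as a term. The causes were not tested.

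In sums per library the sign turned for SLC7A6 in STB against EVT (-0.2006) and against the other classes (-0.5846). With the library code as a term it turned for the slopes of SLC38A2 in CTB (-0.2018), SLC22A16 in EXMC (-0.8348) and SLC38A9 in Extraembryonic Mesoderm (-0.03525). Depth limits the rare members, since 23 of 93 were not tested.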
